A study of Mus musculus with 3 samples.

Results

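8 genes were followed here, chosen by symbol from the 35275 genes of the deposited table: the keratins Krt8, Krt18, Krt7, Krt19 and Krt23, and the biliary and progenitor markers Sox9, Epcam and Prom1. All 8 were found, each once. Bulk liver RNA came from male C57BL/6J mice (written C57BL/6 in the strain label) that were 10 weeks old when their diets began, with 1 library in each of 3 groups. Control mice ate normal chow and were untreated. NASH mice (nonalcoholic steatohepatitis) were fed western diet with liquid fructose and left untreated; their label names 24 weeks. TH-treated NASH mice had the same diet for 16 weeks and then the thyroid hormones T3 (35 ng/g) and T4 (7 ng/g) for 8 weeks in drinking water with 15% fructose. The labels give neither the age of the control mice at collection nor whether a library pools animals. The libraries are called control, NASH and TH-treated NASH below.

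Keratins are the intermediate filament proteins of epithelia, and a filament is built from a type I and a type II keratin in equal amounts. Hepatocytes make the pair Krt8 (type II) and Krt18 (type I), while the cells that line bile ducts make these and also Krt7 (type II) and Krt19 (type I). In chronic liver injury duct-like cells can expand, a ductular reaction, for which Krt7, Krt19, Krt23, Sox9, Epcam and Prom1 serve as markers.

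The libraries held 54576236 fragments on genes in control, 47009255 in NASH and 38303410 after TH treatment. Levels are FPKM, fragments scaled to the gene length of the deposited table and to library depth. Levels of different genes can be set side by side only as far as that length and the assignment of reads to genes hold. Brackets after a fold hold its 95% interval, computed from fragment counts and blind to any spread between animals. No difference has a replicate check, and no test between groups was possible. The thyroid hormone target Dio1 was highest in the treated library, at 429.7 FPKM against 90.3 in control and 129 in NASH. In bulk tissue, fewer cells of a type and less RNA per cell cannot be told apart. A gene was called higher or lower when log2(FPKM + 1) differed by 1.5-fold or more, which shrinks the fold of genes with low levels. By this rule 3 of the 8 genes were higher in NASH than in control (Krt8, Krt23 and Epcam) and none lower. In TH-treated NASH 4 were lower than in NASH (Krt8, Krt23, Sox9 and Epcam) and none higher. The background was 11499 genes that reached 1 FPKM in either library of the pair, 10.5% of them higher in NASH and 2.57% lower. Of 11734 such genes, 8.49% were higher in TH-treated NASH than in NASH and 9.03% lower. Both comparisons share the NASH library. Krt7 and Prom1 stayed below 1 FPKM and lie outside both backgrounds. The median log2 ratio of the 8 genes was 0.38 in the first comparison and −0.57 in the second, against 0.12 and −0.03 over all genes compared. Scaling moved the first background: the median of all genes became −0.06 after median-of-ratios and −0.03 after TMM (trimmed mean) scaling, and the higher genes made up 59.7% and 64.3% of the genes called, against 80.3% as deposited. In the second comparison this share was 48.4% as deposited and 35.0% after scaling FPKM to equal sums.

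**Figure D1:**
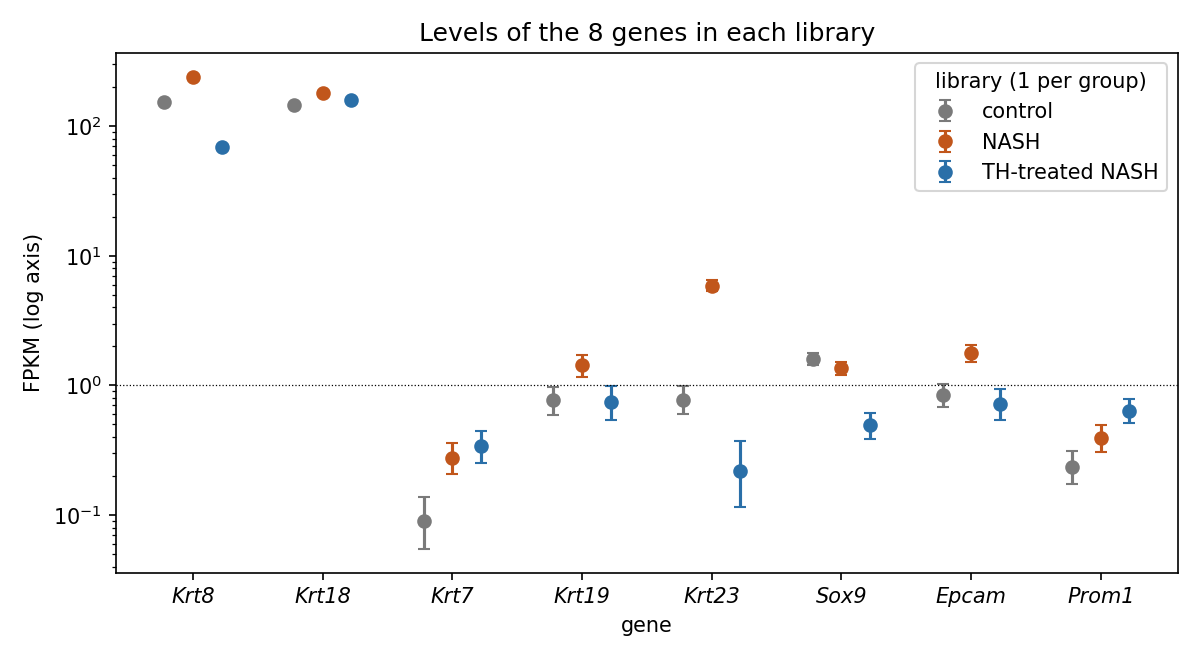
FPKM (log axis) of the 8 genes in the 3 libraries, with exact 95% Poisson intervals that cover counting error only; the dotted line marks 1 FPKM. Krt8 and Krt18 lie between 69.1 and 238 FPKM in every library, and the other genes lie at 5.87 FPKM or below.

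The hepatocyte keratins Krt8 and Krt18 differed most from each other in TH-treated NASH. Krt8 stood at 153 FPKM in control, 238 in NASH and 69.1 after TH treatment. It was 1.56-fold higher in NASH than in control (1.53 to 1.59). In TH-treated NASH it was 3.45-fold lower than in NASH (3.34 to 3.56) and 2.21-fold lower than in control (2.14 to 2.28). Among 11734 genes Krt8 held rank 68 from the lowest log2 ratio of TH-treated NASH to NASH. The higher call in NASH did not hold under median-of-ratios or TMM scaling, where its log2 ratio of 0.64 became 0.42 and 0.46, short of the 0.58 that 1.5-fold requires.

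Krt18, the filament partner of Krt8, stood at 145 FPKM in control, 179 in NASH and 158 after TH treatment. It was 1.24-fold higher in NASH than in control (1.21 to 1.27) and 1.13-fold lower in TH-treated NASH than in NASH (1.10 to 1.16). All 3 libraries thus lay close together for Krt18, whereas for Krt8 the TH-treated library lay far below the others.

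Within a library, the ratio of Krt8 to Krt18 was 1.06 in control (1.03 to 1.08), 1.33 in NASH (1.30 to 1.36) and 0.436 after TH treatment (0.421 to 0.452). The ratio in TH-treated NASH was 3.05-fold below that in NASH (2.93 to 3.18, from the normal approximation to the log ratio of counts), a value that no library scaling can move. Krt8 and Krt18 each made up at least 95.7% of the summed level of their keratin type in every library. Summed over 23 type II and 28 type I keratin genes, the type II to type I ratio was 1.04 in control, 1.28 in NASH and 0.438 after TH treatment. Of the 46 keratin genes other than the 5 named, none reached 1 FPKM in any library and 38 had no fragment at all. The highest of them, Krt10, stood at 0.796 FPKM in control, 0.772 in NASH and 0.698 after TH treatment.

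**Figure D2:**
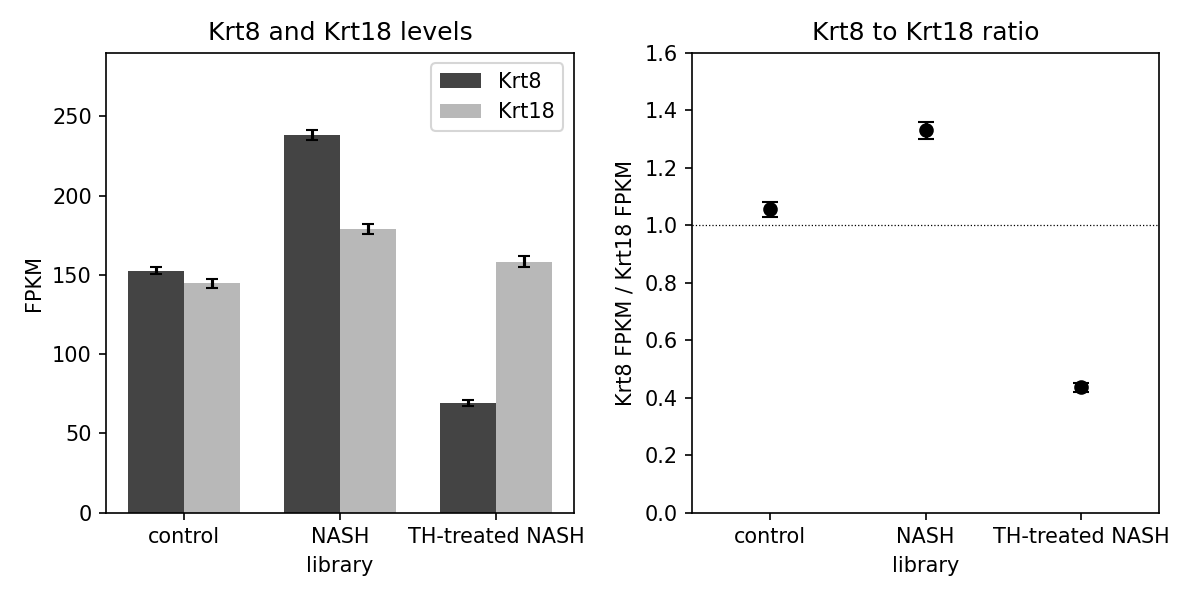
Left, FPKM of Krt8 and Krt18 in each library; right, the ratio of Krt8 to Krt18 within each library. Bars and points are single libraries with exact 95% counting intervals, and the ratio lies at 1.06, 1.33 and 0.436 from left to right.

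Krt8 (ENSMUSG00000049382) and Krt18 (ENSMUSG00000023043) are neighbours on chromosome 15, from 101996711 to 102004342 on the minus strand and from 102028216 to 102032026 on the plus strand as the deposited table gives them, with 23873 bases between them. The sources used here do not name the genome build of the table. No other gene of the table overlaps either gene. Of the distinct 50-base words in GENCODE M21 transcripts of Krt8, 29.7% also occur in transcripts of other genes, the pseudogenes Krt8-ps and Gm36026, against 0.720% for Krt18. How the authors' counting assigned such reads is also not named, so the absolute level of Krt8, and with it the ratio to Krt18 in any one library, is uncertain to that extent.

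RefSeq sequence before the gene starts was read for the 6 of 8 members that the promoter table holds (GRCm38.p6), and the stretches of Krt8, Krt18 and Krt23 are shown because the first pair are neighbours that differed and the last had the largest changes. Each is written 5′ to 3′ on the strand of its gene and holds the bases before the RefSeq start that lie outside the GENCODE M21 gene. They lie at chr15:102004483-102004592 (minus strand), chr15:102027966-102028179 (plus strand) and chr11:99493138-99493370 (minus strand). Capitals mark AGGTCA, the half-site that thyroid hormone receptors and other nuclear receptors bind, and ACAATG, a core that SOX factors bind.
Krt8: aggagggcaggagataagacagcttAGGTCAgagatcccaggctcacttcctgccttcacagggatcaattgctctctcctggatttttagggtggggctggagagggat
Krt18: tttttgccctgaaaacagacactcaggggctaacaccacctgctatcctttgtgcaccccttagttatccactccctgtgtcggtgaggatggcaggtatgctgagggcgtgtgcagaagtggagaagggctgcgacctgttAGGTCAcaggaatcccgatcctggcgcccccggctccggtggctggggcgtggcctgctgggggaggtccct
Krt23: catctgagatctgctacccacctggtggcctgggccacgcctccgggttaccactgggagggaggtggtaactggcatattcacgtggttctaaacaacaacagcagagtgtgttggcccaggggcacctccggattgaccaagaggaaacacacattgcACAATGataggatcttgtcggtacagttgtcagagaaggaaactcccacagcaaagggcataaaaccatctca
On either strand of the 250 bases before the start, AGGTCA occurred once in Krt8 and once in Krt18, and in 14.0% of 32851 promoters of that length. The match lies 225 bases before the start in Krt8 and 108 in Krt18, and its part in their levels was not tested. ACAATG occurred in Krt23 and in 10.7% of all promoters. TGGGAA, a core that the Notch factor RBPJ binds, occurred in Krt8 and Prom1 and in 21.6% of all. TGANTCA (AP-1) occurred in Prom1 and in 6.75% of all. GGAATG (TEAD) and TATAAA occurred in no member with an entry and in 12.6% and 12.4% of all. The Krt8 match to TGGGAA lies outside the printed stretch. No matches in these promoters overlap one another, and a match is a description of letters, not a bound site.

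Krt23, a type I keratin that is scarce in normal liver and appears in injured liver, had the largest ratios of the 8 genes in both comparisons with NASH. It stood at 0.773 FPKM in control (66 fragments), 5.87 in NASH (432 fragments) and 0.217 after TH treatment (13 fragments). NASH alone was high, by 7.60-fold over control (5.85 to 10.002), rank 41 from the highest of 11499 genes. TH-treated NASH was 27.1-fold below NASH (15.7 to 51.3), rank 26 from the lowest of 11734 genes, and 3.56-fold below control (1.95 to 7.04). Set against Krt18 in the same library, Krt23 was at 0.0328 of its level in NASH and at 0.00137 in TH-treated NASH. Krt23 (ENSMUSG00000006777) lies on chromosome 11 from 99477974 to 99493137, in the type I cluster that also holds Krt19 (ENSMUSG00000020911, 100140810 to 100148665), and shares no 50-base word with transcripts of other genes.

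The duct keratins stood far below the hepatocyte pair. Krt19, the type I keratin of bile ducts, stood at 0.767 FPKM in control, 1.43 in NASH and 0.745 after TH treatment, from 66, 106 and 45 fragments. It was 1.86-fold higher in NASH than in control (1.36 to 2.58) and 1.92-fold lower in TH-treated NASH than in NASH (1.34 to 2.78). TH-treated NASH and control were not distinguishable at this depth, with a ratio of 0.971 (0.650 to 1.44). On the log2(FPKM + 1) scale neither difference reached 1.5-fold.

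Krt7, the type II duct keratin, was near the limit of detection, at 0.0895 FPKM in control (20 fragments), 0.275 in NASH (53) and 0.338 after TH treatment (53). It was 3.08-fold higher in NASH than in control (1.81 to 5.43). The ratio of TH-treated NASH to NASH was 1.23, with an interval that holds 1 (0.823 to 1.83), and TH-treated NASH was 3.78-fold above control (2.22 to 6.67). Krt7 and Prom1 lay below 1 FPKM in all 3 libraries, and neither passed 1.5-fold on the log2(FPKM + 1) scale.

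Krt7, Krt8, Krt18 and Krt19 are also made by mesothelium, the cell layer that covers the liver. All 7 mesothelial markers measured (Msln, Upk3b, Upk1b, Wt1, Gpm6a, Lrrn4 and Muc16) lay below 1 FPKM in every library, with a summed level of 0.594 FPKM in control, 2.33 in NASH and 2.52 after TH treatment. Muc16 had no control fragment. This sum, like Krt7, was higher in NASH and TH-treated NASH than in control, whereas Krt19 was highest in NASH. Single markers split between these 2 libraries. Wt1, Gpm6a and Upk3b had lower FPKM in TH-treated NASH than in NASH, and Msln, Muc16, Upk1b and Lrrn4 higher FPKM. The median log2 ratio of the 7 was 0.04. The part of mesothelium in the Krt7 values was not tested. Of 9 pancreas and gut markers, 6 had no fragment in any library. Cela1 stood at 17.5, 10.8 and 56.9 FPKM, and the other markers of that list held at most 3 fragments in a library.

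Sox9, the transcription factor of bile duct and progenitor cells, differed from the keratins in having its highest level in control. It stood at 1.5997 FPKM in control (361 fragments), 1.35 in NASH (263) and 0.492 after TH treatment (78). NASH was only 1.18-fold below control (1.01 to 1.39), whereas TH-treated NASH was 2.75-fold below NASH (2.13 to 3.58) and 3.25-fold below control (2.54 to 4.20). Sox9 (ENSMUSG00000000567) lies on chromosome 11 from 112782224 to 112787760.

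Epcam, an adhesion protein on the surface of duct and progenitor cells, had the same order of levels as Krt8, Krt19 and Krt23. It stood at 0.844 FPKM in control, 1.77 in NASH and 0.717 after TH treatment. It was 2.10-fold higher in NASH than in control (1.62 to 2.73) and 2.47-fold lower in TH-treated NASH than in NASH (1.82 to 3.41). Its log2 ratio of 0.59 to control lay just past 1.5-fold and fell to 0.47 under median-of-ratios and 0.50 under TMM scaling. Between TH-treated NASH and control the ratio was 0.849 (0.599 to 1.19).

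Prom1, a cholesterol-binding protein of membrane protrusions that marks progenitors in several tissues, had its highest level in TH-treated NASH. Of the 8 genes only Krt7 also had its highest FPKM there, not distinguishable from its NASH level at this depth. Prom1 stood at 0.235 FPKM in control (48 fragments), 0.392 in NASH (69) and 0.635 after TH treatment (91). It was 1.67-fold higher in NASH than in control (1.14 to 2.46), 1.62-fold higher in TH-treated NASH than in NASH (1.17 to 2.25) and 2.70-fold higher in TH-treated NASH than in control (1.88 to 3.92). Of the 50-base words of Prom1 transcripts, 5.10% occur in transcripts of other genes. Epcam (ENSMUSG00000045394) lies on chromosome 17 from 87635979 to 87651106, Prom1 (ENSMUSG00000029086) on chromosome 5 from 43993625 to 44102032 and Krt7 (ENSMUSG00000023039) on chromosome 15 from 101411043 to 101430313.

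**Figure D3:**
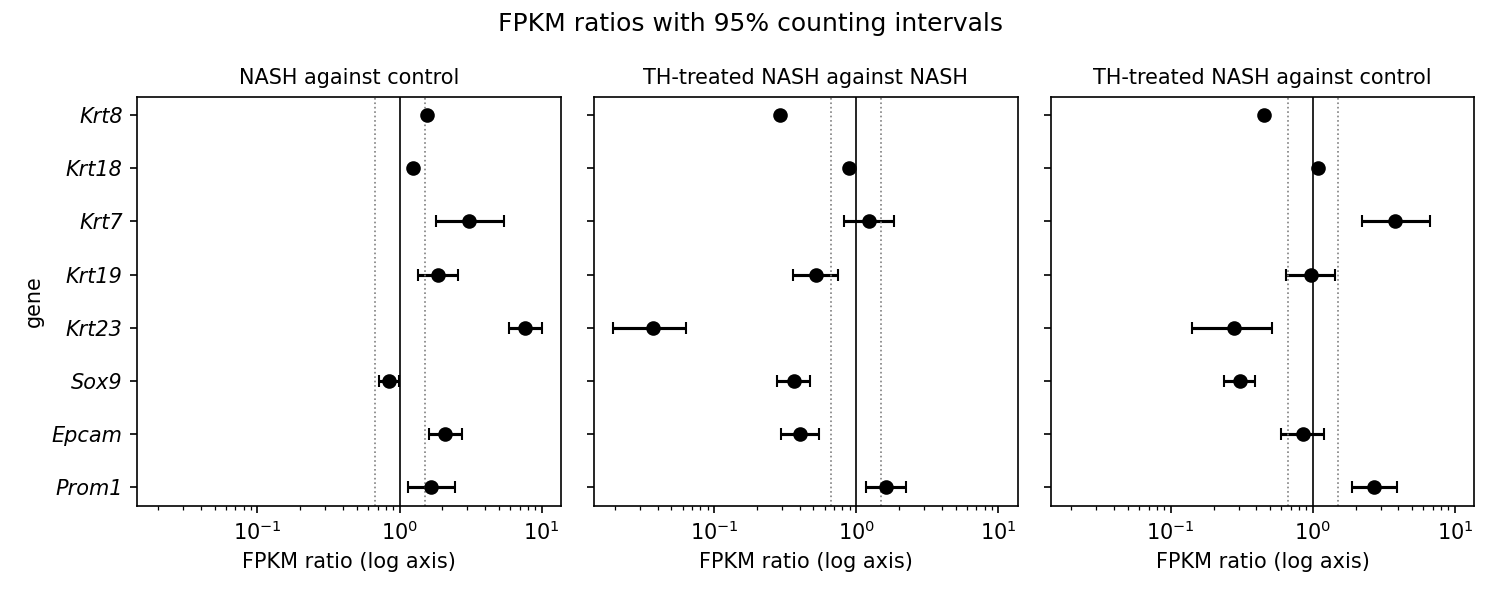
FPKM ratios (log axis) of the 8 genes in 3 comparisons of single libraries, with exact 95% counting intervals; the solid line marks no difference and the dotted lines 1.5-fold. Krt8, Krt23, Sox9 and Epcam lie past the left 1.5-fold line with their whole intervals in TH-treated NASH against NASH, and Krt7 and Prom1 past the right one in TH-treated NASH against control.

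TH-treated NASH was also set beside control, a comparison that shares each library with one of the others. On the log2(FPKM + 1) scale 2 of the 8 genes, Krt8 and Sox9, were lower and none higher. The background of this pair was 11474 genes, of which 6.98% were lower and 15.8% higher. Of the 8 genes only Krt8, Krt18 and Sox9 reached 1 FPKM in either library of this pair. The others lie outside that background, and the pseudocount shrinks their ratios. By the FPKM ratio with its counting interval past 1.5-fold, 3 were lower (Krt8, Krt23 and Sox9) and 2 higher (Krt7 and Prom1). That rule was chosen after seeing the data. The share of all genes that pass it was not computed, so the shares above do not apply to these counts. The median of all genes here was 0.12 as deposited and −0.04 after median-of-ratios scaling, and the higher genes made up 69.4% of the genes called as deposited, against 50.2% under median-of-ratios and 53.3% under TMM scaling. The log2 ratio of Krt18 to control, 0.13 as deposited, turned to −0.05 and thus changed sign under median-of-ratios scaling, and it was also negative after TMM scaling.

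Genes whose pattern over the 3 libraries lay nearest to each member past 1.5-fold were sought among 11835 genes, by Euclidean distance over the log2(FPKM + 1) differences of NASH to control and of TH-treated NASH to NASH. For Krt8 these were Fam13a, the carboxylesterase Ces2c and the aldehyde dehydrogenase Aldh1b1, at distances of 0.06, 0.07 and 0.07. For Krt23 they were the glutathione S-transferase Gstm3, the galectin Lgals1 and the glypican Gpc1, at 0.18, 0.22 and 0.23. Gstm3, for example, stood at 32.3 FPKM in control, 134 in NASH and 25.8 after TH treatment. Atxn2l and Gm16143 were among the genes nearest to Sox9, and Rmdn3, Cited2 and 2810006K23Rik lay nearest to Epcam. The log2(FPKM + 1) scale shrinks the folds of members with low levels, so a near pattern on it is not an equal FPKM fold. Krt23, beside Gstm3, stood at 0.773, 5.87 and 0.217 FPKM in control, NASH and TH-treated NASH. Such likeness also rests on 3 libraries only.

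Other genes of bile duct and of duct expansion differed among themselves. Where a gene is given 3 levels below, they are those of control, NASH and TH-treated NASH in this order. The list counts stand beside the shares over all genes compared. These were 10.5% higher and 2.57% lower in NASH against control, and 8.49% higher and 9.03% lower in TH-treated NASH against NASH. Of 17 genes of duct epithelium function, 8 reached 1 FPKM in any library. In NASH 3 of the 17 were higher than in control (Elf3, Cldn7 and Car2) and none lower. Elf3 lay below 1 FPKM in every library. After median-of-ratios scaling Elf3 and Cldn7 fell short of 1.5-fold, and Car2 stayed past it. The median log2 ratio of the 17 as deposited was 0.13 against 0.12 over all genes. The list median includes genes below 1 FPKM, whose ratios the pseudocount pulls towards 0, and the background does not. With a pseudocount of 0.1 FPKM the 2 medians were 0.50 and 0.14. With TH treatment 1 of the 17, Onecut1, was lower than in NASH, none was higher, and the median was −0.06. The tight junction gene Cldn7 stood at 0.425 FPKM in control, 1.195 in NASH and 0.548 after TH treatment, highest in NASH like Epcam. Carbonic anhydrase Car2 instead stood at 2.34, 5.01 and 6.52 FPKM. Onecut1, a transcription factor of liver and bile duct formation, stood at 2.99, 2.42 and 1.003 FPKM, the order seen for Sox9. The water channel Aqp1, which endothelium also makes, stood at 34.99, 32.8 and 48.2 FPKM.

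Of 14 ductular reaction and progenitor genes, 7 of them at 1 FPKM or more, 4 were higher in NASH than in control (Spp1, Cd44, Cd24a and Bex4) and none lower, with a median of 0.28. Against NASH, Spp1 and Bex4 were lower in TH-treated NASH, none was higher, and the median was −0.01. Spp1, the secreted protein osteopontin that ducts and macrophages make, stood at 27.04 FPKM in control, 95.8 in NASH and 44.3 after TH treatment. The surface protein genes Cd44 (1.39, 4.41 and 6.35 FPKM) and Cd24a (1.31, 3.57 and 5.28 FPKM) were instead highest in TH-treated NASH, the order seen for Prom1. Bex4 stood at 0.153, 1.32 and 0.468 FPKM.

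Notch and YAP signalling act upstream of duct fate in liver. Of 12 genes listed under Notch signalling, 2 were higher in NASH than in control, none was lower and the median was 0.29. The 2 were the target Hes1 (6.37, 11.2 and 8.91 FPKM in control, NASH and TH-treated NASH) and Sox4 (0.447, 1.44 and 0.822 FPKM). Sox4 is a transcription factor gene and not a core part of the pathway. After median-of-ratios scaling Hes1 fell short of 1.5-fold, and the median of the 12 was 0.19. On the log2(FPKM + 1) scale none of the 12 passed 1.5-fold in TH-treated NASH against NASH, where the median was −0.30. The ligand genes Jag1 (0.937, 1.37 and 0.698 FPKM) and Dll4 (1.08, 1.70 and 1.01 FPKM) were highest in NASH, and by the FPKM ratio Jag1 was 1.97-fold lower after TH treatment (1.62 to 2.39). Of 12 Hippo-YAP genes, 4 were higher in NASH than in control (Cyr61, Wwtr1, Ctgf and Ajuba) and none lower, with a median of 0.21. After median-of-ratios scaling Wwtr1, Ctgf and Ajuba fell short of 1.5-fold, and the median of these 12 genes was 0.10. With TH treatment Cyr61 was lower than in NASH and Ctgf higher, and the median was −0.29. Both are YAP targets. Cyr61 stood at 3.60, 8.18 and 1.34 FPKM and Ctgf at 1.49, 2.85 and 4.99 FPKM, so that the treated library was the lowest for Cyr61 and the highest for Ctgf. Wwtr1, which encodes the YAP relative TAZ, stood at 4.52, 7.55 and 4.73 FPKM, and Ajuba stood at 1.98, 3.55 and 2.40 FPKM.

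Some genes for proteins that anchor or protect keratin filaments were lower in TH-treated NASH, where Krt8 was low. Of 11 genes for keratin partners and inclusion body proteins, none was higher or lower in NASH than in control (median 0.04, negative after median-of-ratios scaling). In TH-treated NASH 3 of the 11 were lower than in NASH, beside 9.03% of all genes compared, with none higher (median −0.27). The small heat shock protein Hspb1 stood at 100.1 FPKM in control, 139 in NASH and 26.2 after TH treatment, 5.31-fold below NASH (4.96 to 5.70). Desmoplakin, Dsp, which ties keratin filaments to desmosomes, stood at 6.68, 6.89 and 2.10 FPKM, 3.28-fold below NASH (3.03 to 3.55). Its relative periplakin, Ppl, stood at 2.02, 2.58 and 0.915 FPKM, 2.82-fold below NASH (2.42 to 3.29). The crosslinking enzyme gene Tgm2 stood at 37.7, 55.3 and 63.1 FPKM, highest where Krt8 was lowest.

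Of 9 intermediate filament genes outside the keratin family, 1 was higher in NASH than in control, vimentin (Vim), the filament of mesenchymal cells and macrophages, with a median of 0.29. Vim stood at 9.97 FPKM in control, 20.6 in NASH and 17.5 after TH treatment, above control in both diet-fed libraries. Nes and the lamin gene Lmnb1 were lower in TH-treated NASH than in NASH, and the median was −0.10. Lmnb1 stood at 2.46, 3.23 and 1.22 FPKM, Lmnb2 at 2.65, 3.32 and 2.11 FPKM and Des (desmin) at 1.86, 2.87 and 3.58 FPKM. Of 10 hepatocyte markers, 3 were lower in NASH than in control (Cps1, Alb and Fgb) and none higher. Against NASH, Trf and Fgb were higher in TH-treated NASH, and Apob, Cyp2e1 and Ttr lower. Trf stood at 9.08, 6.54 and 17.2 FPKM, the lowest of the 10 markers in every library. Alb, albumin, stood at 32685, 20265 and 14907 FPKM.

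**Figure D4:**
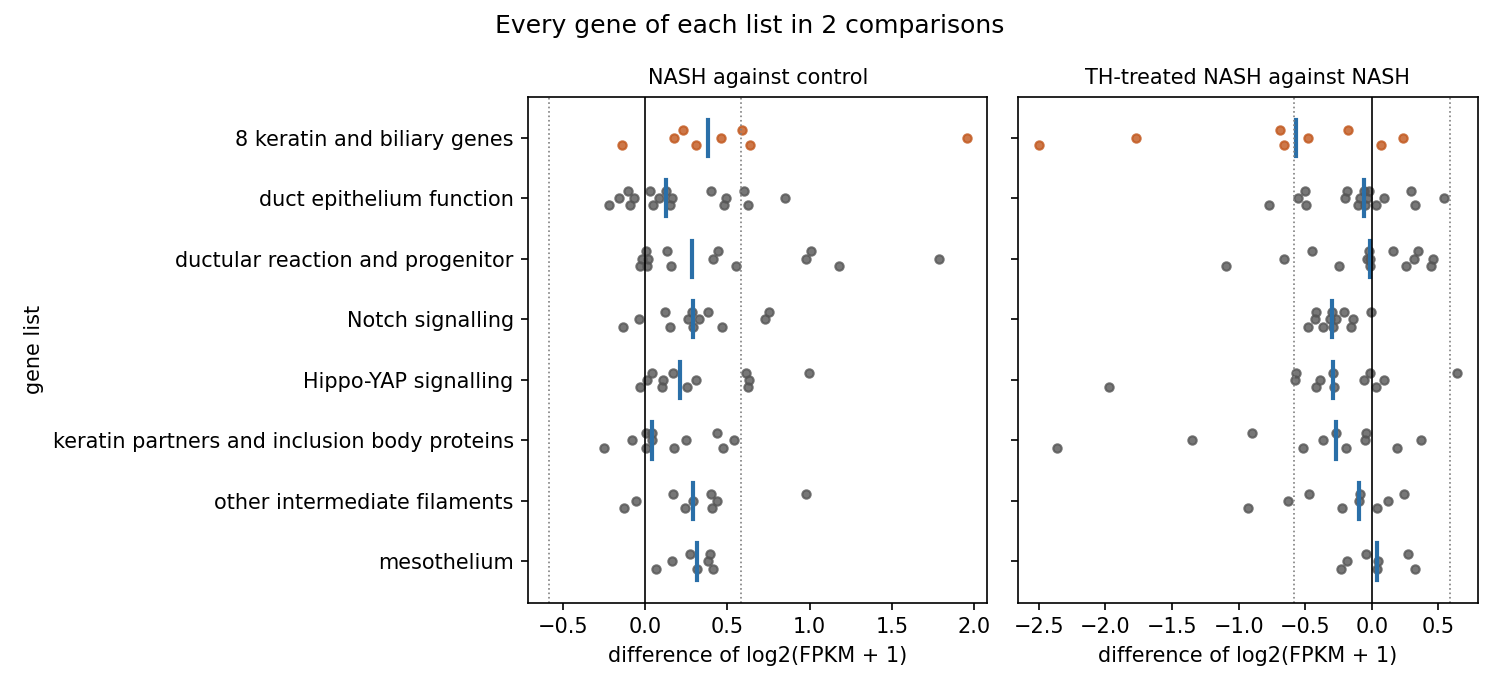
Differences of log2(FPKM + 1) for the 8 genes (orange) and every gene of 7 lists (grey) in NASH against control and TH-treated NASH against NASH; blue bars are medians and dotted lines mark 1.5-fold. The medians of the 8 genes lie at 0.38 and −0.57, and those of the lists between 0.04 and 0.31 and between −0.30 and 0.04.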

How the data were processed

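Poly(A) RNA of 3 mouse liver libraries was enriched on oligo(dT) beads and copied with random hexamers, per the labels' protocols. The authors deposited 1 table of FPKM values by gene. TopHat2 and HTSeq appear in the submitters' processing notes, without versions, settings, strand mode or genome build. FPKM multiplied by gene length fell in whole multiples of 1 step per library (100% of values above 0 whole within 0.01 fragment), and dividing by that step gave the fragments per gene. Fold ratios are FPKM ratios with exact conditional binomial (Clopper-Pearson) 95% intervals from these fragments. PCR copies are not independent molecules, so these intervals cover counting error only. Log2 ratios used a pseudocount of 1 FPKM, and the background was every gene reaching 1 FPKM in either library of a pair.

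The 8 members and the 9 gene lists (102 entries, 101 found) were chosen with earlier results of these data known. Named were all members and, per list, up to 4 genes with the largest log2 ratio in either comparison with NASH among genes reaching 1 FPKM, the defining markers of other cell types, and the 3 genes of nearest pattern for members past 1.5-fold; 1 of these is not reported here. Elf3, Nes and Krt10 were named after their values were seen. Lists were counted over all genes found. The 9 other settings tried were pseudocounts of 0.1 and 5 FPKM, 4 scalings, a threshold of 2-fold, no filter and a filter of 5 FPKM; calls on the counting interval came later, chosen after seeing the data. Calls and intervals were checked on simulated data first. Positions of 4 of the 8 members equal those in GENCODE M21. Python 3.11.15, pandas 2.3.3, numpy 2.4.6, scipy 1.17.1 and matplotlib 3.10.9 were used.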

Additional observations from a re-analysis of the deposited data

How the results depend on the processing

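With 1 library per group, no replicate could be left out. No paired analysis was possible because each group holds 1 library. Krt23 stayed past 1.5-fold in both comparisons with NASH under each scaling and pseudocount tried, and Krt8 in TH-treated NASH against NASH likewise. Of the 8 genes, the 3 higher in NASH than in control became 1 (Krt23) after median-of-ratios scaling, after TMM scaling and at 2-fold, and 5 with a pseudocount of 0.1 FPKM. The 4 lower in TH-treated NASH than in NASH became 2 with a pseudocount of 5 FPKM and at 2-fold. Against control, the 2 lower in TH-treated NASH became 1 under the same settings, and 2 rather than none were higher with a pseudocount of 0.1 FPKM and when the counting interval had to pass 1.5-fold, a setting chosen after seeing the data.

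Over the gene lists, 14 genes were higher and 4 lower in NASH than in control; 36 were higher with a pseudocount of 0.1 FPKM, 3 with 5 FPKM, 8 after median-of-ratios or TMM scaling and 3 at 2-fold, and 8 were lower after median-of-ratios scaling and 0 at 2-fold. In TH-treated NASH against NASH 4 were higher and 12 lower; 7 were higher with a pseudocount of 0.1 FPKM and 2 at 2-fold or after scaling to equal FPKM sums, and 28, 7 and 4 were lower with 0.1 FPKM, with 5 FPKM and at 2-fold. In TH-treated NASH against control 12 were higher and 12 lower. Of these settings, 25 were higher with 0.1 FPKM and 5 at 2-fold, and 7 and 3 were lower with 5 FPKM and at 2-fold. List medians moved too. In NASH against control with 0.1 FPKM they were 0.50 for duct epithelium function and 1.01 for ductular reaction and progenitor genes. For Notch and Hippo-YAP genes they were 0.56 and 0.48, against 0.14 over all genes.

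Over all genes, 1208 were higher and 296 lower in NASH than in control, against 367 and 159 with 5 FPKM, 383 and 89 at 2-fold and 789 and 533 after median-of-ratios scaling; 483 were lower after TMM scaling and 551 higher among genes of at least 5 FPKM. In TH-treated NASH against NASH 996 and 1060 became 513 and 459 with 5 FPKM and 320 and 325 at 2-fold, with 677 lower among genes of at least 5 FPKM. Against control 1817 and 801 became 789 and 380 with 5 FPKM and 639 and 278 at 2-fold; 1260 and 1205 were lower after median-of-ratios and TMM scaling, and 1093 higher among genes of at least 5 FPKM. A higher threshold, pseudocount or filter lowers counts by construction; for the scalings the cause was not tested. Depth limits Krt23, Krt7, Krt19, Prom1, Epcam and Sox9, whose lowest libraries held 13, 20, 45, 48, 56 and 78 fragments.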

Other observations

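Within 100 kb of the pair, a window chosen after the values were seen, the table holds 6 further genes, of which Krt4, Krt79 and Krt78 are keratins below 1 FPKM in every library. The translation factor gene Eif4b stood at 73.6 FPKM in control, 73.9 in NASH and 75.9 after TH treatment. Tenc1 (tensin 2) stood at 17.9, 18.3 and 17.7 FPKM and Spryd3 at 8.27, 8.77 and 8.44 FPKM. On the log2(FPKM + 1) scale none of the 6 passed 1.5-fold in any of the 3 comparisons. Krt79 held 3, 2 and 21 fragments and Krt4 held 4, 8 and 17 fragments in control, NASH and the treated library. By the FPKM ratio Krt79 was 12.9-fold higher in TH-treated NASH than in NASH (3.15 to 113) and 9.97-fold higher than in control (2.98 to 52.2), and Krt4 was 6.06-fold higher than in control (1.98 to 24.7). Krt78 had no fragment in any library.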
